A study of Mus musculus with 12 samples.

Results

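The respiratory chain of the mitochondrial inner membrane was followed through 81 nuclear genes, all but 2 of them counted as genes of its subunits. They were taken from 19938 genes that the array names with a transcript cluster of their own. A transcript cluster is the array's unit of measurement, a set of probes read together as 1 log2 signal. Genes were taken by symbol: every Nduf gene of the a, b, c, s and v series, the 4 Sdh genes, and all genes whose symbol starts with Uqcr, Atp5 or with Cox followed by a number from 4 to 8. Where several clusters named a gene, the brightest over the 12 arrays stood for it. By complex they came to 33 genes of complex I, 4 of complex II, 8 of complex III, 17 of complex IV with Ndufa4 counted there, and 17 of complex V. A further 2 genes matched by symbol and stay among the 81 without being counted as subunits of a complex. They are Cox7a2l, which acts in the joining of complexes into supercomplexes, and Ndufa4l2, a relative of Ndufa4. Cox7c and Ndufb4 are named on this array only by clusters shared with another gene and were not included.

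Bone marrow neutrophils of wild-type C57BL/6 mice and of mice homozygous for the Card9tm1Jrld mutation (Card9-/-) were compared. Card9 is an adaptor protein of immune receptor signalling. In all 4 groups the cells came from a Percoll gradient and are labelled Ly6G+, and they stood for 4 h on plastic coated with human serum albumin. In the control groups the albumin was alone, and in the immune complex (IC) groups it carried antibody against it. Each of 3 experiments, made at separate times, gave 1 array of every group, so there were 3 arrays a group. The methods give mice of both sexes aged 2 to 6 months, with no age or sex by group, and do not state whether the cells of an array came from 1 mouse or several. The error used throughout is therefore the variation of group differences from experiment to experiment, pooled over the 4 groups. A shift in level shared by the arrays of an experiment was taken out. The remaining variation may be partly technical. In bulk RNA of this kind, fewer cells of a type and less RNA per cell cannot be told apart.

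Complexes I to IV pass electrons from NADH and succinate to oxygen and, all but complex II, pump protons, and complex V, the ATP synthase, makes ATP from the proton gradient. Most subunits are encoded in the nucleus, complex II wholly so, while the mitochondrial genome encodes some central subunits of the others. Mature neutrophils hold few mitochondria and are known to draw most of their ATP from glycolysis.

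Card9 itself checked the genotype labels, with log2 signals between 8.08 and 8.75 on the 6 wild-type arrays and between 5.56 and 6.42 on the 6 Card9-/- arrays. The 12 neutrophil markers averaged between 12.1 and 12.4 on every array. Markers of other cells differed between genotypes or surfaces in some experiments. The mean of 8 B-cell and plasma-cell markers lay between 5.43 and 8.57, at 7.66 on the Card9-/- IC array against 6.47 on the wild-type IC array of experiment 1 and at 8.57 against 7.94 in experiment 3, but at 5.46 against 5.44 in experiment 2. The 8 eosinophil, basophil and mast-cell markers averaged 7.86, 7.90 and 9.01 on the Card9-/- IC arrays and 7.96, 7.45 and 7.97 on the wild-type IC arrays of experiments 1, 2 and 3. The 7 monocyte and macrophage markers averaged 7.60, 7.72 and 7.59 on the Card9-/- and between 7.27 and 8.20 on the wild-type IC arrays. Of these, Adgre1 had IC group means of 9.09 in Card9-/- and 10.01 in wild-type cells. In the same order Csf1r had 8.54 and 9.24 and Cd74 had 9.17 and 9.31. Ms4a6c (7.80 and 7.85) and Cx3cr1 (6.19 and 6.20) hardly differed. Ccr2 (5.30 and 4.96) and F13a1 (7.37 and 7.18) were higher in Card9-/- cells. From control to IC in experiment 3, the B-cell and plasma-cell marker mean went from 7.55 to 7.94 in wild-type cells. In Card9-/- cells it went from 7.94 to 8.57. In experiments 1 and 2 the wild-type mean went from 6.67 to 6.47 and from 5.49 to 5.44. The wild-type neutrophil mean went from 12.36 to 12.26, 12.33 to 12.24 and 12.39 to 12.16 in experiments 1, 2 and 3. In Card9-/- cells it went from 12.31 to 12.41, 12.42 to 12.44 and 12.14 to 12.08. Experiment 3 stood apart. Its array medians over all clusters were 5.27 to 5.39, while those of the other experiments were 5.70 to 5.93, and its IC differences spread more widely, with a standard deviation over all clusters of 0.40 in wild-type cells, against 0.26 in experiment 1 and 0.24 in experiment 2.

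The members were well measured in these cells. Of the 81 genes, 74 had a mean signal above 5.65, the median over all clusters, and 7 did not. The dim ones were Ndufa5 and Ndufb2 of complex I, the relative Ndufa4l2 and 4 tissue forms of complex IV, with Cox7b2, a testis form, at a mean of 3.29. The median member signal on an array ran from 8.43 to 9.40. Its highest value belonged to the wild-type IC array of experiment 3.

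Sequence before the start site was examined as a feature the choice did not use. RefSeq (GRCm38.p6) gave a promoter window, from 250 bases before to 50 bases after a start site, for 66 members. GCGCATGC, the core of the site of NRF1, an activator of many respiratory genes, was present on either strand in windows of 10 members (15.2%) and of 3.05% of all 27025 genes with a window. CCGGAAG, a core of the ETS family to which the regulator GABP belongs, was present in 17 members (25.8%, against 9.93%). AAGATGGC, the core of the YY1 site, was present in 10 (15.2%, against 3.19%), and GGGCGG, the SP1 core, in 27 (40.9%, against 38.2%). A match of letters is not a site in use, and no binding was measured. The 250 bases before the start are shown for 3 members whose windows hold both the NRF1 and the ETS letters, Cox6a1 (chr5:115348959-115349208, minus strand) of complex IV, Atp5l (chr9:44920743-44920992, minus strand) of complex V and Sdhb (chr4:140961021-140961270, plus strand) of complex II, and for Sdha (chr13:74350241-74350490, minus strand), whose window holds none of the 4 motifs and which is described below for its lower signal on the IC surface. Each reads 5′ to 3′ along the gene, and capitals mark the motif letters on either strand.
Cox6a1: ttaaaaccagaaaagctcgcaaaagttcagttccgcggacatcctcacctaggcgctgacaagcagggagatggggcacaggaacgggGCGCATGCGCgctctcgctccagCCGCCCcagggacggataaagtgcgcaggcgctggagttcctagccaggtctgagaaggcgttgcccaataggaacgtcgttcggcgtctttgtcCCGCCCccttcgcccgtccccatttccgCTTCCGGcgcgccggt
Atp5l: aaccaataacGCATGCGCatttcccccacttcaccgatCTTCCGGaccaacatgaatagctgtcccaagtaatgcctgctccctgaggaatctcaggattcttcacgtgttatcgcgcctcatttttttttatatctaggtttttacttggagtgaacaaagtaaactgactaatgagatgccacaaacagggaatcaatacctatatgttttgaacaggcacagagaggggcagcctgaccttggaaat
Sdhb: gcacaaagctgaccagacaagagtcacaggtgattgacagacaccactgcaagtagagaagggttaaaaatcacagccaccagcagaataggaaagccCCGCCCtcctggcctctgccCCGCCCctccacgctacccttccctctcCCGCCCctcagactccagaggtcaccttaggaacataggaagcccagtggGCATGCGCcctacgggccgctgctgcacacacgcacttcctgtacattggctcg
Sdha: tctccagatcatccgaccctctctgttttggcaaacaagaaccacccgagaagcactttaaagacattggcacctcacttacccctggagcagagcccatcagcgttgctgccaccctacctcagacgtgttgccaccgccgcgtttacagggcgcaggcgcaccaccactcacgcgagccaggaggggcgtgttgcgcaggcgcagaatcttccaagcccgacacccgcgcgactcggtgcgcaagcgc
In Cox6a1 the NRF1 letters of both strands overlap in 1 palindrome, with SP1 and ETS letters nearer the start. In Sdhb the ETS letters lie after the start site and are not shown.

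The first question was whether immune complexes changed the respiratory chain in wild-type neutrophils. No member passed an adjusted p of 0.05 in limma's moderated test, with Benjamini-Hochberg adjustment over all 28944 clusters, and the background was also 0%. The smallest adjusted p of a member was 0.438. At an unadjusted p under 0.05 there were 6 members, 4 higher and 2 lower on IC, where 9.59% of all clusters passed. The fitted differences ran from -0.30 for Ndufs1 to 0.40 for Uqcrq on the log2 scale, and the 95% intervals of all 81 members lay inside a 2-fold change in either direction. The lowest bound was -0.59, for Ndufs1, and the highest was 0.74, for Uqcrq.

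The direction of the members depended on the experiment. In experiment 1 only 17 of 81 members were higher on IC and the median difference was -0.11. In experiment 2 it was 28 of 81, with a median of -0.06. In experiment 3 it was 72 of 81, with a median of 0.41. In that experiment 60.3% of all clusters were higher on IC, and among clusters brighter than the median 47.8%, while 66 of the 74 members of that brightness were. Over the 3 experiments the median was 0.08, with 52 of 81 members above 0, against 0.04 over all clusters, and with each array centred on its own median it was 0.02, with 42 above 0. Without experiment 3 the median was -0.09 and 10 members had an unadjusted p under 0.05 by limma, with a smallest adjusted p of 0.219. Members higher in all 3 experiments numbered 9 (background 18.8%) and members lower in all 3 numbered 8 (background 12.3%).

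**Figure D1:**
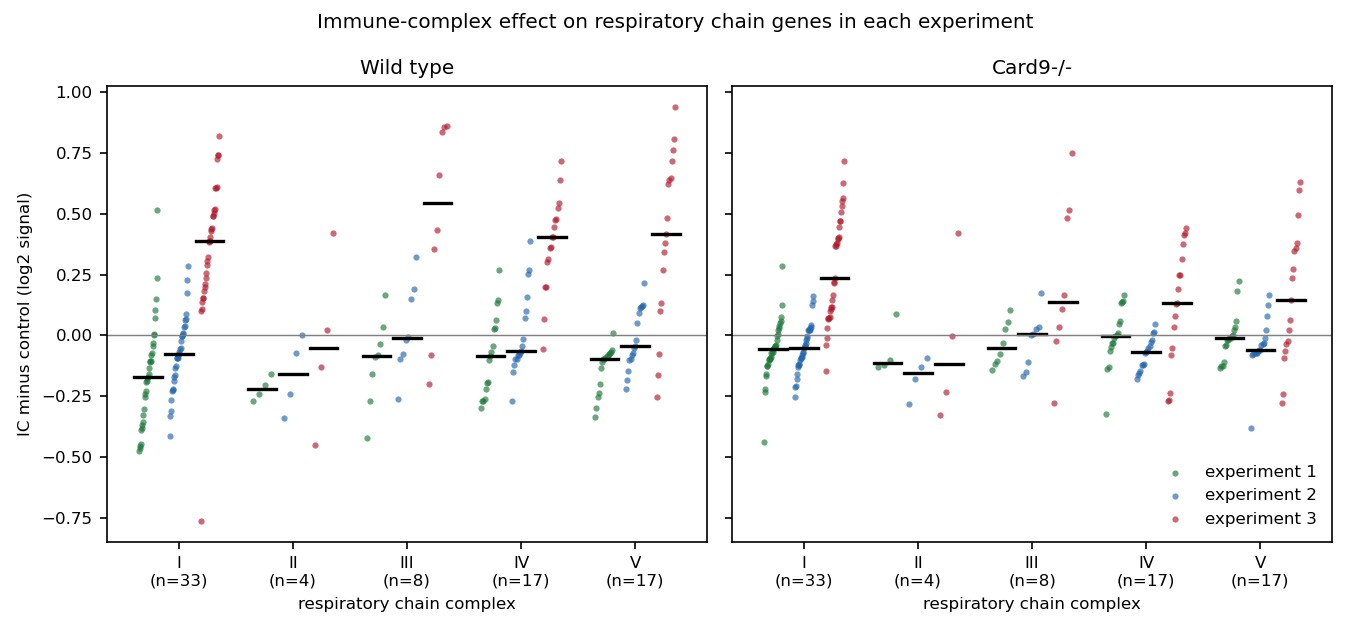
Each point is 1 gene's log2 signal on the IC surface minus that on the control surface in 1 experiment, by complex, with wild-type cells on the left and Card9-/- cells on the right. Black bars are medians over the genes of a complex. In wild-type cells the median of complex I is -0.17 in experiment 1 and 0.39 in experiment 3, while that of complex II is below 0 in all 3 experiments.

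By the medians of the deposited values, complexes I, III, IV and V shared this pattern and complex II did not. In complex II, 2 of 4 genes were higher on IC in experiment 3. In wild-type cells the medians of complex I were -0.17, -0.08 and 0.39 in experiments 1, 2 and 3, those of complex III -0.09, -0.01 and 0.55, those of complex IV -0.09, -0.06 and 0.41, and those of complex V -0.10, -0.04 and 0.42. In experiment 3, 32 of the 33 complex I genes were higher on IC, Ndufs1 being the exception. The medians of complex II were -0.22, -0.16 and -0.05, and its 4 genes all had a fitted difference below 0, though with quantile normalization 1 of the 4 lay above 0 and the median of experiment 3 was 0.16. The overall median of complex I was 0.02 and turned to -0.04 with median centring. Those of complexes III, IV and V were 0.19, 0.12 and 0.10 and stayed above 0 under both scalings. Differences between complexes were not tested, since genes of a complex are not replicates.

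Over all complexes pooled, the median of a list of nuclear-encoded subunits, called central here, lay below that of the other subunits. The name is a label for the list, which lacks the central subunits encoded by the mitochondrial genome. The central group holds 19 members, those of complex I that carry flavin or iron-sulphur centres or lie beside them (Ndufs1, Ndufs3, Ndufs7, Ndufs8, Ndufv1, Ndufv2), all of complex II, Uqcrc1, Uqcrc2 and Uqcrfs1, Cox4i1, Cox5a and Cox5b, and the alpha, beta and gamma subunits of the ATP synthase, Atp5a1, Atp5b and Atp5c1. Their median IC difference was -0.06 with 5 of 19 above 0, and that of the 53 other subunits, tissue forms left out, was 0.09 with 39 of 53 above 0. In experiment 3, 13 of 19 and 51 of 53 were higher on IC, with medians of 0.18 and 0.48. The central group stayed below the other subunits after quantile normalization, at -0.01 and 0.08. Median centring gave -0.11 and 0.04, but it shifts all genes of an array alike. It cannot change the gap between the groups and is no check of it. In Card9-/- cells the medians were -0.04 and 0.07. By complex, the wild-type medians of central and other subunits were -0.06 and 0.09 in complex I, -0.03 and 0.21 in complex III and -0.11 and 0.15 in complex V. Complex IV went the other way, at 0.08 and 0.02, and complex II has no subunit outside the central group.

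Sdha, the flavoprotein that oxidises succinate, was lower on IC in each experiment. Its log2 signals in wild-type cells were 9.57, 9.44 and 9.30 on the control surface and 9.41, 9.20 and 8.85 on IC. The groups overlapped because the experiments differed in level, but each IC array lay below its own control. The fitted difference was -0.28 ± 0.10 (SE, n = 3 experiments), 0.821-fold, with an unadjusted p of 0.0146 and an adjusted p of 0.438 by limma. In Card9-/- cells the difference was -0.18, again lower in all 3 experiments. Sdhd, a membrane anchor of complex II, differed by -0.27, -0.07 and -0.13 in wild-type cells, and without Card9 by -0.12, -0.13 and -0.23. Sdhc, the other anchor, lay near 0, at -0.06 ± 0.10 (SE) in wild-type cells. Sdhb, the iron-sulphur subunit, differed by -0.24 and -0.34 in experiments 1 and 2 but by 0.42 in experiment 3, from 8.89 to 9.31.

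In wild-type cells the beta and alpha subunits of the ATP synthase also lay lower on IC in each experiment, by small amounts. Atp5b, the catalytic beta subunit, had signals of 10.95, 11.32 and 11.44 on control and of 10.89, 11.24 and 11.28 on IC, a difference of -0.10 ± 0.09 (SE, n = 3 experiments). Atp5a1, the alpha subunit, differed by -0.07, -0.14 and -0.25. Uqcrc2, a core protein of complex III, differed by -0.09, -0.10 and -0.20 in wild-type cells and by -0.14, -0.11 and -0.28 in Card9-/- cells. Atp5e, the small epsilon subunit, and Atp5mpl, a small membrane subunit, went up by 0.81 and 0.94 in experiment 3 and by at most 0.22 in the others. None of these genes passed an unadjusted p of 0.05 in limma's test. Ndufs1, the largest iron-sulphur subunit of complex I, had the lowest difference of any member, -0.30 ± 0.13 (SE, n = 3 experiments), and it came from 1 experiment: the signal went from 7.63 to 6.86 in experiment 3, while it went from 8.05 to 7.88 in experiment 1 and from 8.18 to 8.22 in experiment 2.

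Among genes higher on IC, complex III held Uqcrfs1 and Uqcrq. Uqcrfs1 is the Rieske iron-sulphur protein, which takes electrons from ubiquinol. Its wild-type signals were 7.45, 7.87 and 7.46 on control and 7.62, 8.06 and 7.89 on IC, a difference of 0.26 ± 0.10 (SE, n = 3 experiments), 1.20-fold, with an unadjusted p of 0.0177 and an adjusted p of 0.454 by limma. Of the 19 central subunits it was the only one higher in each of the 3 wild-type comparisons, and without Card9 it was again higher in all 3, with a fitted difference of 0.13. Uqcrq, a small subunit near the ubiquinone site, differed by 0.03, 0.32 and 0.84 in wild-type cells, and without Card9 by 0.11, 0.01 and 0.48. Its fitted wild-type difference of 0.40, or 1.32-fold, was the highest of any member and was carried mostly by experiment 3. Uqcr10 and Uqcrh, further small subunits, were higher on IC in experiment 3 alone, by 0.86 and 0.66.

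In complex I the highest difference was that of Ndufa2, a small subunit of the matrix arm. Its signals were 8.16, 8.63 and 8.46 on control and 8.31, 8.86 and 9.18 on IC in wild-type cells. In Card9-/- cells the IC arrays read 8.08, 8.43 and 8.76, above their own controls by 0.08, 0.03 and 0.07. The wild-type IC array was the highest of the 4 in each experiment. The wild-type difference was 0.37 ± 0.12 (SE, n = 3 experiments; unadjusted p of 0.0112 and adjusted p of 0.438 by limma), and the Card9-/- difference was 0.06. Ndufa13, an accessory subunit of complex I also known as GRIM-19, was higher on IC in wild-type cells by 0.23, 0.04 and 0.44. Ndufa7, another accessory subunit, differed by -0.19, 0.29 and 0.82.

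In complex IV the 7 tissue forms had a median IC difference of 0.19 in wild-type cells. In all 3 experiments 4 of them were higher (background 18.8%) and 1 was lower (background 12.3%). These genes are known from muscle, lung or testis, and their mean signals lay between 3.29 and 6.81. A wild-type difference above 0 was found in 59.7% of all clusters and in 48.1% of those brighter than the median. Dimmer clusters thus lay above 0 more often. Cox6a2, the heart and muscle form of subunit 6a, went from 6.51 to 6.78, from 7.16 to 7.43 and from 6.06 to 6.54 (difference 0.34 ± 0.10 SE, n = 3 experiments; unadjusted p of 0.00599 and adjusted p of 0.438 by limma), while Cox6a1, the general form, differed by 0.01. Cox4i2, the lung form of subunit 4, differed by 0.15, 0.25 and 0.20, and its general counterpart Cox4i1 by 0.08 on average. Cox7a1 and Cox8b, muscle forms, and Cox6b2 and Cox8c, testis forms, had wild-type differences of 0.19, 0.12, 0.25 and 0.16. Cox7b2 was the lower one, by 0.30, 0.08 and 0.06. In Card9-/- cells the median of the 7 was 0.00.

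**Figure D2:**
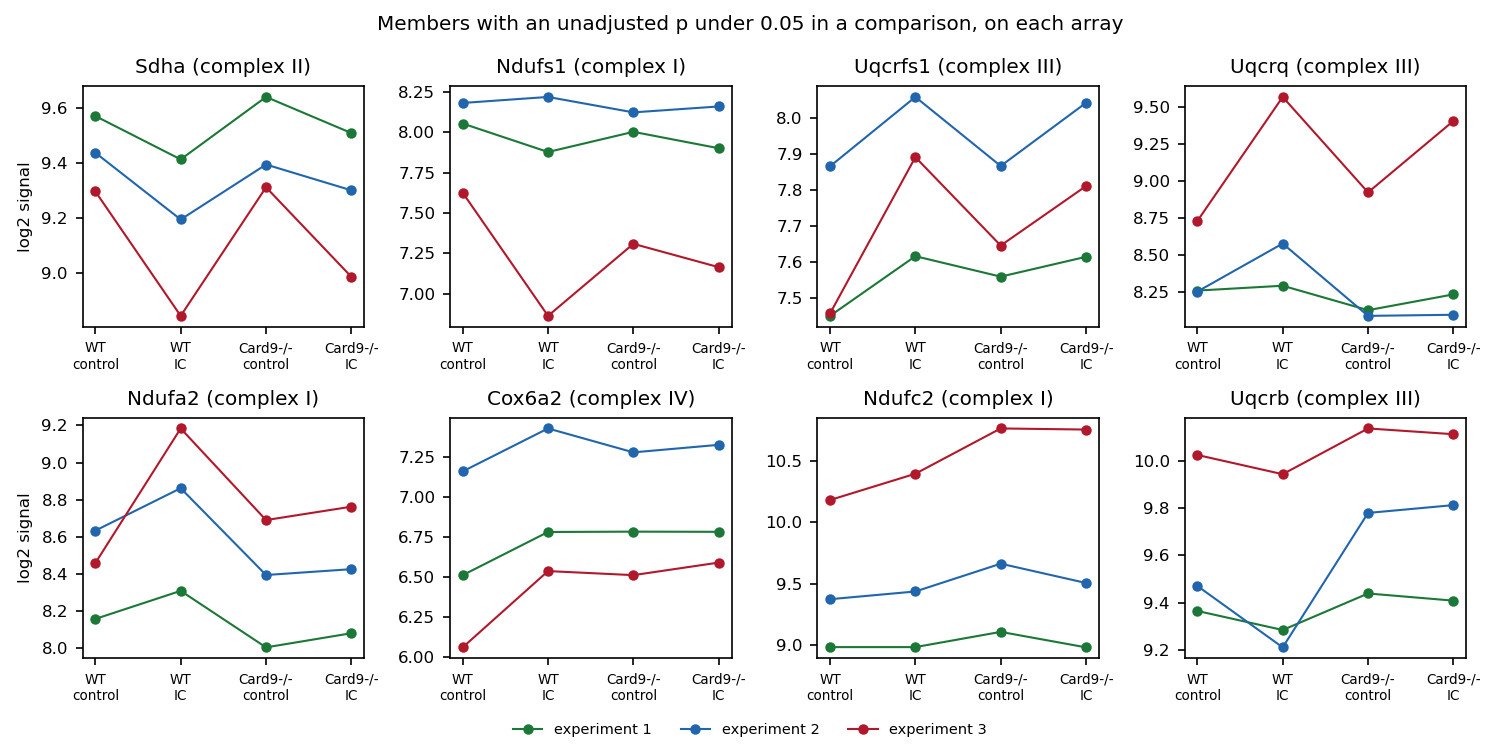
Log2 signal of 8 genes on all 12 arrays, each point 1 array and each line 1 experiment, with wild-type (WT) and Card9-/- cells on the control and IC surfaces. Signal axes differ between panels and do not start at 0. Sdha dips and Uqcrfs1 peaks on the IC arrays of both genotypes, and Ndufa2 peaks on the wild-type IC array in each experiment.

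In Card9-/- cells, 0 members passed an adjusted p of 0.05 for IC against control (background 0%), the smallest adjusted p was 1.00, and at an unadjusted p under 0.05 there were also 0 of 81, against 3.01% of all clusters, by limma. The median difference was 0.03, with 50 of 81 above 0, against -0.01 over all clusters. By experiment the medians were -0.04, -0.06 and 0.17, with 27, 22 and 61 of 81 members above 0, so experiment 3 stood apart in this genotype too. There were 7 members higher (background 11.5%) and 11 lower (background 14.7%) in all 3 experiments. By complex the medians were 0.04, -0.10, 0.06, 0.03 and 0.04 for I to V, and complex II was again the lowest. Atp5md, a small membrane subunit of the ATP synthase, was higher on IC by 0.22, 0.17 and 0.24 in these cells, with an unadjusted p of 0.0977 by limma. Ndufb3, an accessory subunit of complex I, was higher by 0.06, 0.14 and 0.37. Without experiment 3 the median over members was -0.04.

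**Figure D3:**
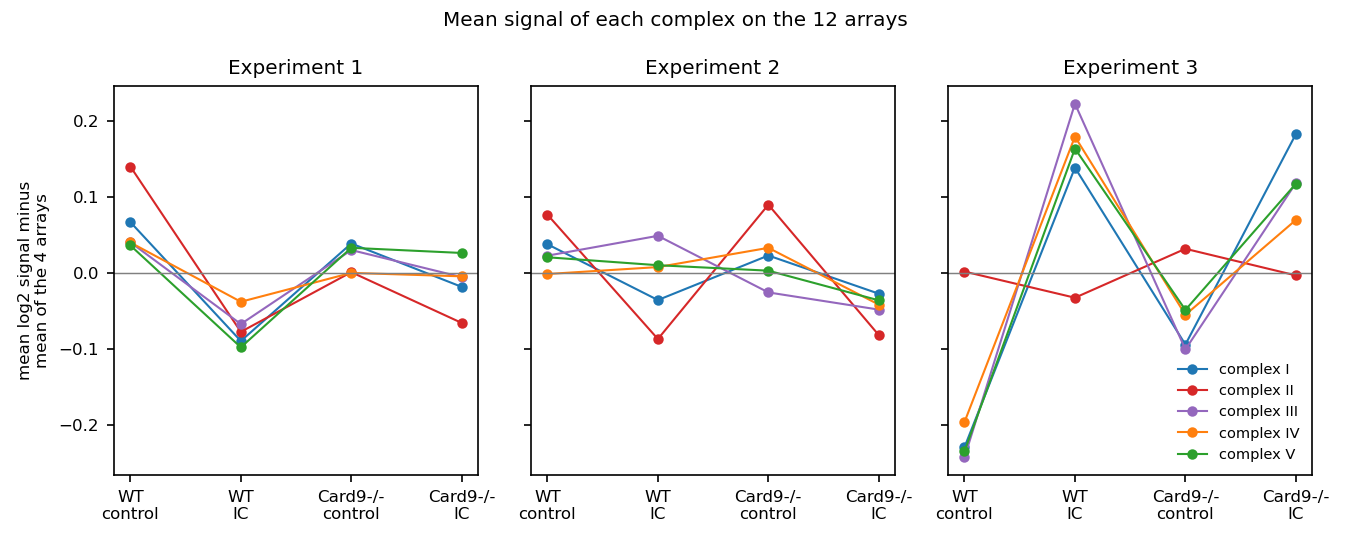
Mean log2 signal of the genes of each complex on each array, minus the mean of the 4 arrays of that experiment, in 3 panels by experiment. Lines join the arrays of an experiment. In experiment 3 complexes I, III, IV and V lie lowest on the wild-type control array, between -0.24 and -0.20, and complex II stays between -0.03 and 0.03.

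The next question was whether loss of Card9 changed these genes on either surface. On the control surface 0 members passed the adjusted p of 0.05, where 0.038% of clusters did, and on IC 0 members passed, where 0.162% of clusters did. At an unadjusted p under 0.05 limma gave 2 members on the control surface, both higher (background 4.64%), and 2 on IC, 1 in each direction (background 9.13%), and without experiment 3 this was 5 on IC, with a smallest adjusted p of 0.182. On the control surface the median difference was 0.04 with 55 of 81 members above 0, but it turned to -0.02 with 34 above 0 after median centring. Without experiment 3 it was -0.01. In experiment 3, 64 of 81 members were higher in Card9-/- control cells, with a median of 0.16, and in experiments 1 and 2 it was 35 and 36. Members higher in all 3 experiments numbered 18 (background 18%) and members lower in all 3 numbered 12 (background 12.8%). On IC the median was 0.02 with 44 above 0 and -0.02 without experiment 1, and 14 members were higher (background 13.5%) and 14 lower (background 15.4%) in all 3. All 81 intervals again lay inside a 2-fold change on both surfaces.

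Ndufa2 was the member with the smallest p on IC. Its Card9-/- signals lay below wild type by 0.23, 0.44 and 0.42 on the log2 scale, a fitted difference of -0.36 ± 0.12 (SE, n = 3 experiments), 0.778-fold, with an unadjusted p of 0.0123 and an adjusted p of 0.359 by limma. On the control surface it was lower by 0.15 and 0.24 in experiments 1 and 2 and higher by 0.23 in experiment 3. Uqcrb, a small subunit of complex III, went the other way on IC. Its signals there were 9.28, 9.21 and 9.94 in wild-type and 9.41, 9.81 and 10.11 in Card9-/- cells, a difference of 0.30 ± 0.11 (SE, n = 3 experiments; unadjusted p of 0.0213 and adjusted p of 0.431 by limma), and experiment 2 gave most of it. The other 2 clusters that name Uqcrb gave 0.24 and 0.30. Ndufc2, a subunit of the membrane arm of complex I, was higher in Card9-/- control cells, at 9.11, 9.66 and 10.76 against 8.99, 9.37 and 10.18 (difference 0.33 ± 0.12 SE; unadjusted p of 0.0158 and adjusted p of 0.954 by limma). Cox6a2 was higher there by 0.27, 0.12 and 0.45. Atp5g1, which encodes a form of the membrane ring subunit c, lay lower on IC by 0.12, 0.35 and 0.36, and Atp5c1 lay higher by 0.20, 0.36 and 0.07. Ndufa9, an accessory subunit of complex I, lay higher on IC by 0.19, 0.18 and 0.26, and Atp5h, of the peripheral stalk of the ATP synthase, by 0.17, 0.22 and 0.14. On the control surface Ndufb5 lay higher by 0.14, 0.08 and 0.32 and Cox6c by 0.08, 0.16 and 0.22.

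**Figure D4:**
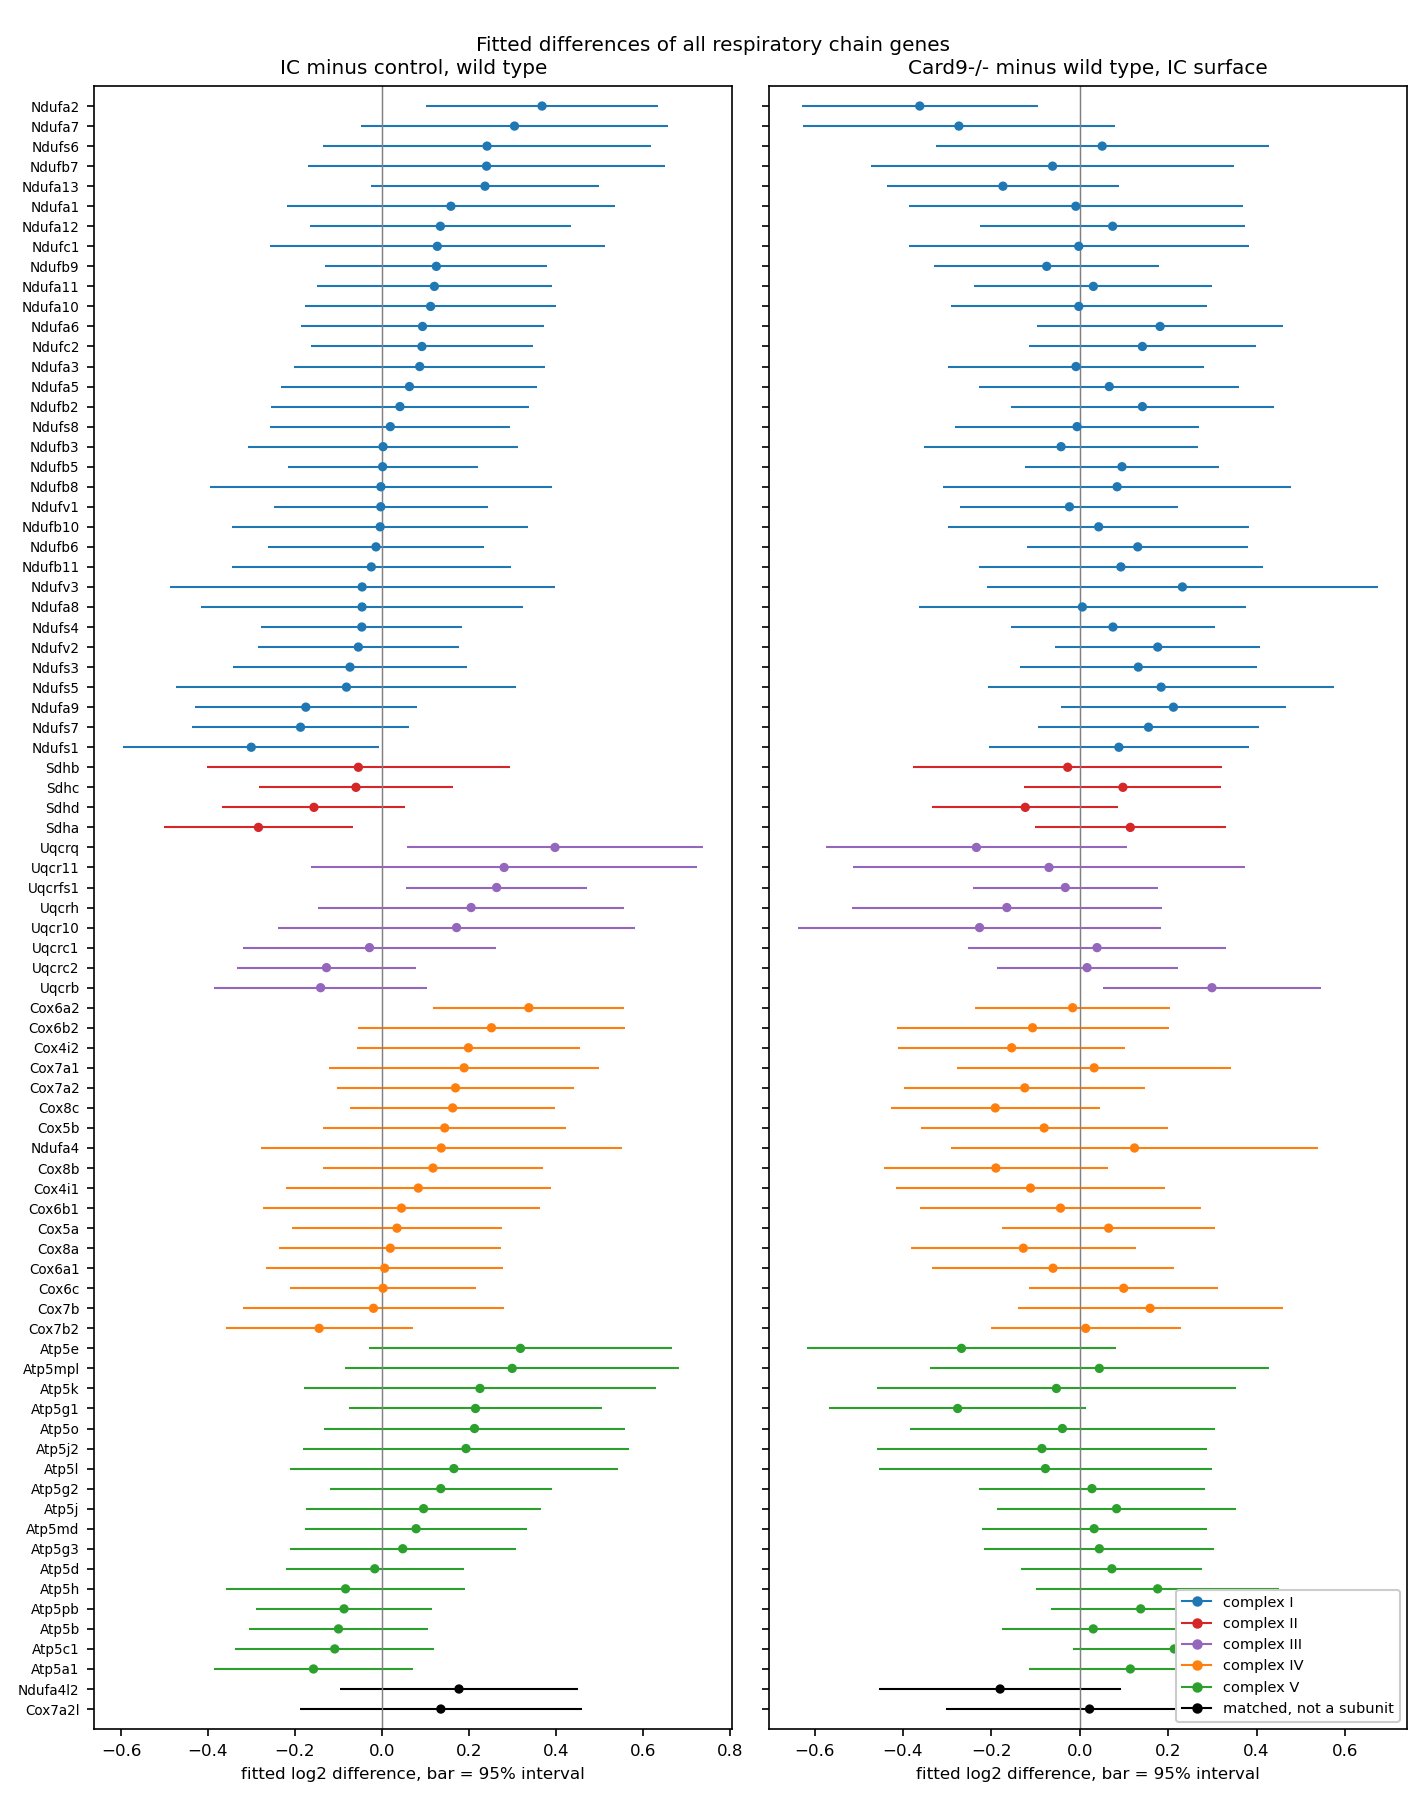
Fitted log2 difference of each of the 81 genes with its 95% interval, for IC minus control in wild-type cells on the left and for Card9-/- minus wild type on IC on the right, in the same gene order and coloured by complex. On the left 75 of 81 intervals include 0 and on the right 79 of 81.

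Whether Card9 changed the IC effect was tested directly as the signed difference between the effects of the genotypes, Card9-/- minus wild type. No member passed (background 0%), the smallest adjusted p was 0.999, and 0 of 81 had an unadjusted p under 0.05, against 3.68% of all clusters, by limma. The median difference of effects was -0.02 with 36 of 81 above 0, median centring turned it to 0.06 with 54 above 0, and without experiment 3 it was 0.04. In all 3 experiments the IC difference was higher in Card9-/- than in wild-type cells for 5 members (background 12.4%). It was lower for 13 (background 16.6%). These counts go by sign, so a member lowered less by IC without Card9 counts as higher. The smallest unadjusted p belonged to Cox6a2, at -0.30 ± 0.14 (SE; p of 0.0599 by limma), followed by Ndufa2 at -0.31 ± 0.17 (p of 0.100). These intervals are wider, with a median half-width of 0.39 against 0.28 for the single comparisons.

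After the mean of each experiment was taken off, the correlation of a member with the mean of the other members over the 12 arrays had a median of 0.70, with 9 of 81 below 0, while that of the 19857 other genes with the mean member had a median of 0.04, and 47.0% were below 0. The values of members ran from -0.79 for Ndufs1 to 0.96 for Ndufa3. Over the 8 arrays of experiments 1 and 2 the median was 0.53, with 16 below 0, and that of the other genes was -0.07. A level shared by all genes of a single array was not taken out, and the arrays come from only 3 experiments, so these are descriptions. Outside the list, the genes most like the mean member over 12 arrays were Smyd3 (0.97), Sumf1 (0.96), Kxd1 (0.96), Dpm3 (0.96) and Rps29 (0.96). Rps29 encodes a protein of the small ribosomal subunit, and cytosolic ribosomal protein genes showed a like course: their wild-type IC medians over 59 genes were -0.07, -0.01 and 0.36 in the 3 experiments, with 56 of 59 above 0 in experiment 3. For 77 mitochondrial ribosomal protein genes they were -0.08, 0.03 and 0.23. The 13 genes of the tricarboxylic acid cycle, which feeds the chain, went from -0.03 and -0.00 to -0.10, with 4 of 13 above 0 in experiment 3.

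Genes around the chain were read from lists of assembly factors, regulators and entry enzymes, and in no list did a gene pass the adjusted p of 0.05 in any comparison. On IC against control in wild-type cells, 1 of 15 complex IV assembly genes was higher and 2 were lower at an unadjusted p under 0.05, where 9.59% of all clusters passed, and the counts of the other assembly lists are also to be read beside that share. Cox17, a copper chaperone, was higher by 0.39, 0.22 and 0.46 in wild-type and by 0.23, 0.07 and 0.53 in Card9-/- cells, whereas Coa5 was lower by 0.18, 0.21 and 0.69 and Surf1 lower by 0.44, 0.28 and 0.27 in wild-type cells. Among 13 complex I assembly genes, 1 was higher and 1 lower. Ndufaf7, a methyltransferase that acts on a complex I subunit, was higher by 0.89, 0.13 and 0.30 on IC in wild-type cells and lay lower in Card9-/- than in wild-type IC cells by 0.85, 0.74 and 0.46 (difference -0.68 ± 0.14 SE; adjusted p of 0.106 by limma). Tmem126b, another complex I assembly factor, was lower on IC in wild-type cells by 0.28, 0.30 and 0.34. Of 14 assembly genes of complexes II, III and V, 1 was higher and 0 lower. This was Lyrm7, which helps to insert the Rieske protein, higher by 0.31, 0.14 and 0.47.

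Among the 12 regulators, Gabpb1, a subunit of GABP, lay lower in Card9-/- than in wild-type IC cells by 0.40, 0.48 and 0.40 (difference -0.43 ± 0.10 SE; adjusted p of 0.152 by limma). It was the 1 regulator of 12 with an unadjusted p under 0.05 in that comparison, where 9.13% of all clusters passed. The mitochondrial genome was represented by 2 of its 13 protein genes, COX2 and ND3. On IC both lay higher in Card9-/- than in wild-type cells in all 3 experiments, COX2 by 0.23, 0.44 and 0.19 and ND3 by 0.53, 0.87 and 0.39 (ND3 difference 0.60 ± 0.18 SE; adjusted p of 0.268 by limma). The nuclear subunits outside the symbol rule, Cycs, Cyc1 and Ndufab1, had wild-type IC differences between -0.01 and 0.12. Among 11 genes of uncoupling and other electron entry, Coq10b, which binds ubiquinone, was higher on IC in Card9-/- cells by 0.32, 0.20 and 0.62 (unadjusted p of 0.00978 by limma).

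A set of 16 members had more than 1 cluster, and where clusters lie on near-identical copies their signals cannot be told apart with certainty. For the wild-type IC comparison the clusters of 14 of the 16 genes shared a sign, and the largest gap between clusters of a gene was 0.18, for Uqcr11. The 6 clusters of Atp5l, which encodes subunit g of the ATP synthase, gave between 0.12 and 0.17. For the difference between genotypes on IC, 10 of 16 shared a sign. The part of the B-cell, eosinophil, monocyte and related markers in the genotype and IC differences was not tested.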

How the data were processed

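The 12 arrays were hybridised with biotin-labelled material amplified from 150 ng of RNA. The authors deposited 1 table of log2 signals, with 35556 rows and 12 arrays. How these deposited log2 values were background-corrected, summarized and normalized was not given in the sources used here. Control rows (6612) were left out, and 28944 clusters were tested. Symbols came from the platform annotation, and all 81 members matched a gene ID of the RefSeq table. With limma 3.58.1 in R 4.3.3, group means were fitted with the experiment as a fixed block on all 12 arrays (6 residual and 5.40 prior degrees of freedom), two-sided, with Benjamini-Hochberg adjustment over all clusters and a threshold of 0.05. The block follows the labels, which give the experiments as separate times. Same-experiment arrays of different groups correlated in their deviations from the group means by 0.67 to 0.87, and other pairs by -0.73 to 0.36. Members, complexes, lists and motifs were chosen with earlier results of these data known. The naming rule takes any member past the threshold, the core subunits, the tissue forms and, per complex and comparison, the 2 smallest p among members of 1 direction in all experiments and the largest difference, 2 genes of each list by the same rule and the 5 genes most alike. Alternatives were other scalings, blocks, priors, a filter on dim clusters, the mean over a gene's clusters, and leaving out each experiment. The fit was tested on simulated data. The number of arrays limits the precision.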

Additional observations from a re-analysis of the deposited data

Results flagged for a closer look

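Ndufc2, a membrane arm subunit of complex I, had wild-type IC differences of 0.00, 0.06 and 0.21 and Card9-/- differences of -0.13, -0.16 and -0.01, so that the signs of the genotypes were opposite in every experiment, the first by a wild-type value near 0. The difference of the IC effects was -0.19 ± 0.17 (SE), and the direct test of it gave an adjusted p of 0.999 by limma.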

How the results depend on the processing

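Under every alternative run, 0 members passed the adjusted p of 0.05 in any of the 5 comparisons. Each median over members moved by less than 1 standard deviation of the 3 experiment medians. Leaving out 1 of 3 experiments can hardly exceed that limit, so it is no check there. The wild-type IC median stayed inside it while turning from 0.08 as deposited to -0.09 without experiment 3. Median centring turned the median between genotypes on the control surface from 0.04 to -0.02 and that of the difference of effects from -0.02 to 0.06. Without the replicate block, which pairs the arrays of an experiment, limma likewise called 0 members, with a smallest adjusted p of 1.00 and 0 at an unadjusted p under 0.05, and the block changed no other call. Leaving out 1 experiment at a time gave 0 called members throughout and medians from -0.09 to 0.17 for IC in wild-type cells, -0.04 to 0.07 for IC in Card9-/- cells, -0.01 to 0.06 between genotypes on the control surface, -0.02 to 0.04 between them on IC, and -0.09 to 0.04 for the difference of effects. The lowest wild-type median is that without experiment 3. Among the differences of named genes with 1 direction in all 3 experiments, 1 turned under an alternative: the Uqcrc2 difference of effects, -0.05 as deposited, was 0.026 with median centring, which shifts all genes alike. The largest such shift of the median over all clusters was 0.08. The restriction to the arrays of the groups compared was not run for the difference of effects, which uses all 4 groups.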
